A study of Mus musculus with 6 samples.

Results

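The T cell receptor (TCR) complex and the proteins that carry its signal inward were examined as a group of 43 genes, chosen by symbol: the CD3 chains, the surface receptors beside them, the proximal kinases, the adaptors and effectors, the calcium and NFAT branch, and the negative regulators. All 43 symbols were found, each on 1 line, among 23282 lines per library, and all 43 passed the filter on low values (a mean of at least 1 on the log2 scale over the 6 samples). The libraries hold RNA labelled as that of CD4 T cells from C57BL/6 mice, with 3 samples in each group. Both groups carried the floxed Prkaa1 gene, which encodes AMPKα1. The AMPK KO mice (Prkaa1 fl/fl with CD4Cre) also carried a Cre recombinase under Cd4 control, and the WT mice (Prkaa1 fl/fl, CD4Cre-neg) did not. In the Cre line deletion is limited to cells that have used the Cd4 promoter, which in the T lineage includes the precursors of CD8 T cells. The methods describe isolation of CD4 T cells with microbeads or a cell sorter, with purity checked by flow cytometry after bead isolation. Any remaining cells that never used the Cd4 promoter keep Prkaa1. The methods describe female mice aged 6 to 8 weeks unless specified otherwise, and the labels give neither sex nor age. The cells, taken from spleen and lymph nodes, had 1 h of rest before stimulation with anti-CD3 and anti-CD28 (2 µg/mL each). The labels give 24 h of stimulation and the methods a shorter time, so that the time is not settled here.

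The TCR itself has no enzyme activity. It relies on the CD3 chains, whose cytoplasmic motifs are phosphorylated by Lck and Fyn and then bound by Zap70. Zap70 phosphorylates the adaptors Lat and Lcp2, on which phospholipase C (Plcg1) and Vav1 assemble, and the diacylglycerol made by Plcg1 recruits the Ras activator Rasgrp1. Calcium then enters through Stim1 and Orai1 and frees NFAT factors by way of calcineurin, whereas ubiquitin ligases and phosphatases damp the signal. In stimulated T cells the receptor is internalised and its components are re-synthesised, so transcript levels and surface levels need not move together.

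Of the 43 members, 5 fell and 2 rose in the AMPK KO samples at an adjusted p under 0.05 (limma, two-sided, Benjamini-Hochberg over 11279 tested genes). Those that fell were Cd3g, Cd3e, Stim1, Cbl and Cblb, and those that rose were Thy1 and Ubash3b. The 5 lower genes were 11.6% of the members, against 3.1% lower among all tested genes, and the 2 higher genes were 4.65% of the members, against 2.54%. The groups did not overlap for 12 members that were lower (27.9% of the members, 14% of all tested genes) and 2 that were higher (4.65% and 11.6%), where 25.6% of all tested genes did not overlap in either direction. The median log2 fold change was −0.29 over the members and 0.02 over all tested genes, and 30 members had a negative value. No test was made over the list. At an unadjusted p under 0.05 there were 13 members, compared with 2405 genes of all tested (21.3%).

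**Figure D1:**
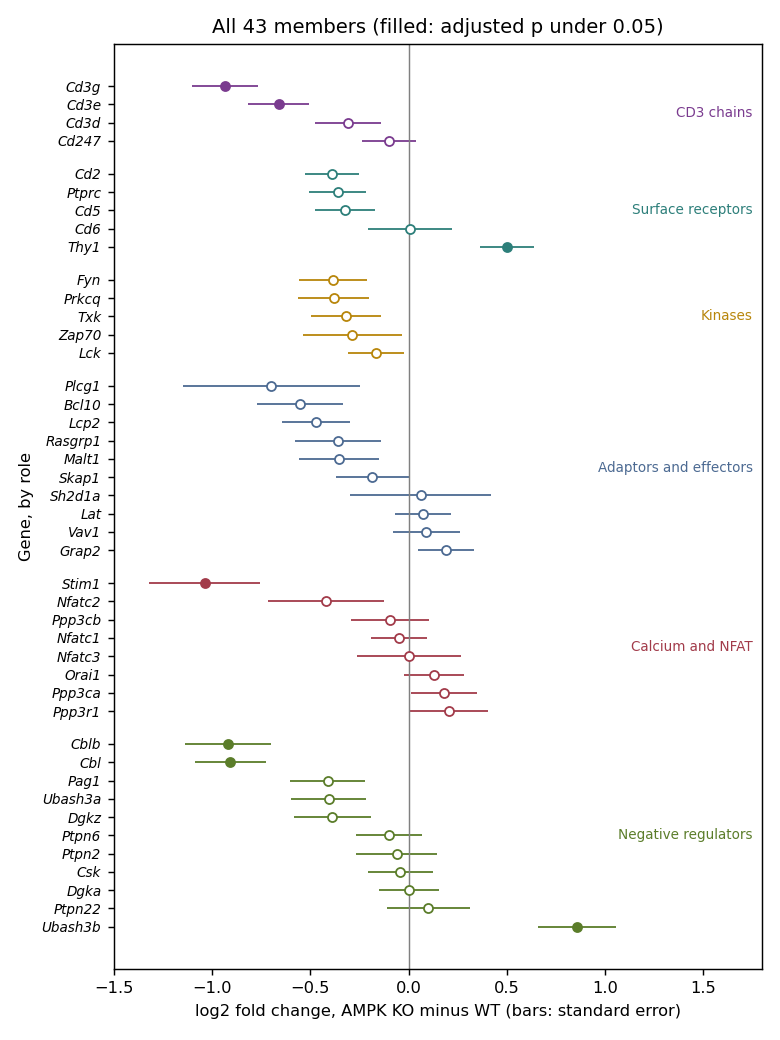
Log2 fold change (AMPK KO minus WT, x axis) of the 43 members on the y axis, in 6 role groups, with bars for the standard error and filled points for an adjusted p under 0.05. All 4 CD3 chains and all 5 kinases lie below 0 in the deposited values (Cd3d, Cd247 and the 5 kinases are above 0 when centred on the T cell markers), and Ubash3b and Thy1 lie farthest above it.

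The libraries held 9575096 to 11185358 reads on genes, which were recovered from the deposited values. The ribosomal RNA precursor Rn45s made up 22.4% ± 2.21 of the WT reads (SD, n = 3) and 9.89% ± 1.24 of the AMPK KO reads (SD, n = 3). Prkaa1 itself was at 4.64, 5.24 and 4.86 in WT and 4.08, 4.72 and 4.67 in AMPK KO on the log2 scale, and the groups overlapped (limma, adjusted p = 0.357). These 3′-end reads do not tell whether the deleted part of the gene was present. The sex-linked transcripts, although the methods describe female mice, divided the groups, with Xist at 0.93 to 2.16 in WT and 7.55 to 7.92 in AMPK KO, and Ddx3y at 8.44 to 8.53 and 6.93 to 7.28. Sex-linked expression and genotype cannot be told apart in these samples.

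The labelled cell type was checked with a list of 15 T cell markers that holds no member, of which 12 were tested. Cd4 was at 6.53 to 6.83 in WT and 6.14 to 6.55 in AMPK KO. Transcripts of CD8 T cells were present as well, with Cd8a at 6.48 to 6.86 in WT and 6.95 to 7.08 in AMPK KO. Cd8b1 was at 7.165 to 7.608 in WT and 7.585 to 7.984 in AMPK KO. Of the 12 T cell markers 6 fell (Cd28, Bcl11b, Tcf7, Lef1, Il7r and Ets1) and 0 rose, with a median log2 fold change of −0.46. Their summed normalized value in CPM (counts scaled to library size) was 5239 to 5889 in WT and 3950 to 4386 in AMPK KO, and none was at 0 in any library. Tcf7 (−1.66), Lef1 (−1.03) and Il7r (−0.68) are also known to be turned down when T cells leave the naive state. Of 15 tested macrophage and monocyte markers 7 rose and 0 fell, with a median of 1.10. The sum of that list was 486 to 552 CPM in WT and 935 to 1653 in AMPK KO, and its members Fcgr1 and Mertk were at 0 in at least 1 library. Of 12 B cell markers none passed the threshold in limma (0 called, 1 at an unadjusted p under 0.05), and their sums were 378 to 415 and 395 to 436. Of 9 neutrophil markers 2 fell, with sums of 793 to 907 and 519 to 762. All 5 tested NK cell markers had positive log2 fold changes (median 0.75), with sums of 39.1 to 57.7 in WT and 65.2 to 91.9 in AMPK KO, but none passed the threshold in limma (0 called, 2 at an unadjusted p under 0.05). Of 3 platelet markers, all positive with a median of 1.18, 1 rose (Pf4), and the sums were 7.01 to 15.2 and 17.4 to 30.6. Both CD8 T cell markers were positive without passing the threshold, with sums of 231 to 305 and 321 to 376. Of 6 erythroid markers 0 were called in limma (0 at an unadjusted p under 0.05), and their sums overlapped, at 3988 to 4595 and 2886 to 5567. The part of these shifts, and of Rn45s, in the members' values was not tested. In bulk samples, fewer cells of a type and less RNA per cell cannot be told apart.

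When each library was centred on the mean of the T cell markers, the median fold change of all tested genes moved by 0.52. On this scale 0 members were lower, against 0.594% of all tested genes, and 11 (25.6%) were higher, against 31.6%. The median of the members was 0.24. Cd3g (−0.41, adjusted p = 0.0858), Cbl (−0.38, 0.103), Cblb (−0.40, 0.160), Stim1 (−0.52, 0.139) and Cd3e (−0.14, 0.540) kept a negative value but were no longer past the threshold in limma. Thy1 (1.02) and Ubash3b (1.38) were. The other 9 higher members were Dgka, Grap2, Lat, Nfatc1, Orai1, Ppp3ca, Ppp3r1, Ptpn22 and Vav1. Of all calls, 45.1% were higher for the deposited values, 98.2% after this centring, 32.6% when scaled to reads outside Rn45s and 71.4% with limma voom on the recovered reads.

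**Figure D2:**
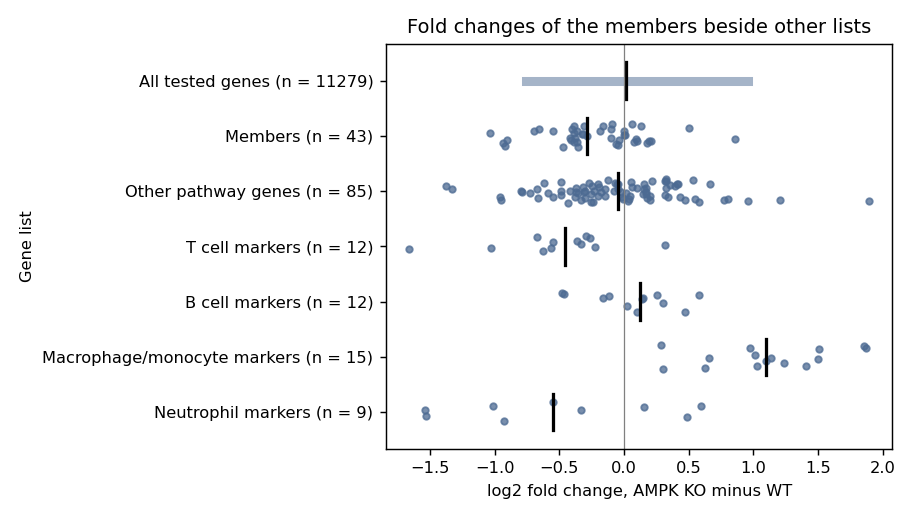
Log2 fold changes (AMPK KO minus WT, x axis) of single genes as points in each list on the y axis, with a black line at the median, and for all tested genes a bar from the 5th to the 95th percentile. The members have a median of −0.29, between the other pathway genes at −0.05 and the T cell markers at −0.46, and the macrophage and monocyte markers have a median of 1.10.

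Many of the calls among the members were lost, and some gained, when 1 library was left out. Each of these fits also had fewer samples, and the effect of that was not separated from that of the library. The number of lower members was 0 without WT sample 1, 1 (Cd3g) without WT sample 3, 2 (Cbl and Cd3g) without AMPK KO sample 1, and 4 without WT sample 2 or AMPK KO sample 3. It was 11 without AMPK KO sample 2, when Cd2, Cd3d, Dgkz, Lcp2, Ptprc and Ubash3a were added to the 5. The calls over all tested genes moved in the same fits, where leaving out WT samples 1, 2 and 3 in turn gave 0.496%, 2.91% and 0.576% lower, and leaving out AMPK KO samples 1, 2 and 3 gave 0.887%, 5.14% and 2.38%. The 11 lower members of the fit that lacks AMPK KO sample 2 were 25.6% of the members. The number of higher members was 2 without AMPK KO sample 2, 1 (Thy1) without AMPK KO sample 3 and 0 without any 1 of the other 4 libraries. Over all tested genes the higher calls in these fits were 5.90% without AMPK KO sample 2 (the 2 members were 4.65%), 1.73% without AMPK KO sample 3 and 0.629% to 3.55% in the other 4. None of the 7 genes changed sign in any of these fits. In AMPK KO sample 2 the T cell marker sum was 3950 and the macrophage and monocyte sum 1653, the lowest and the highest of the 6 libraries.

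**Figure D3:**
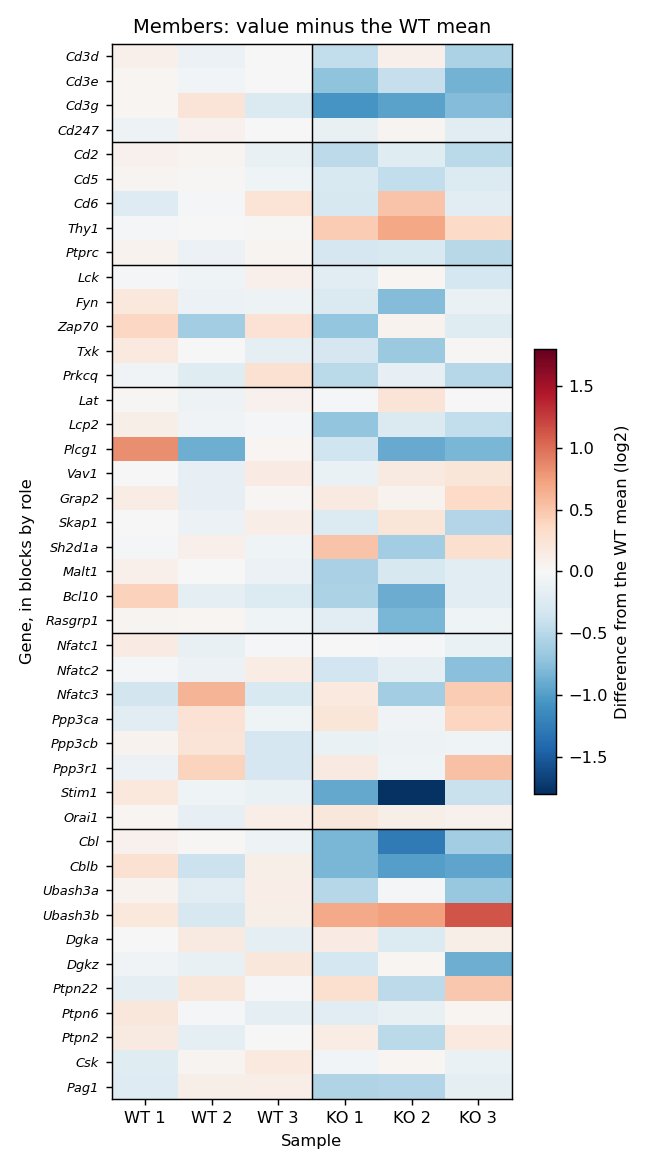
Value of each member (rows, in blocks by role) minus its WT mean, on the log2 scale as colour, in the 3 WT and 3 AMPK KO samples (columns). Cd3g, Cbl and Cblb are below the WT mean in all 3 AMPK KO samples and Ubash3b is above it, whereas the Cd3d value of AMPK KO sample 2 (9.53) lies among the WT values.

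The CD3 chains form the signalling part of the receptor. Cd3d, Cd3e and Cd3g encode the δ, ε and γ chains, and Cd247 encodes the ζ chain. The first 3 of these genes lie side by side on chromosome 9 (GENCODE M21, mm10): Cd3g at 44969572-44980431 on the minus strand, Cd3d at 44981786-44987339 on the plus strand and Cd3e at 44998740-45009627 on the minus strand. The starts of Cd3g and Cd3d are 1354 bases apart and point away from each other. Cd247 lies on chromosome 1 at 165788681-165877277, plus strand, where it overlaps Pou2f1 on the opposite strand. Cd3e overlaps the antisense gene Gm48719, and without a stated strand setting reads of the 2 cannot be told apart. The 250 bases before each start (RefSeq, GRCm38.p6, 5′ to 3′ on the gene's strand) are shown for these 4 neighbouring or partner genes. Their log2 fold changes ranged from −0.93 to −0.10, and no test established a difference between them. Capitals mark GGAAG (an extended form of the shorter ETS core, which was not counted by itself) and CTTTGA (a TCF/LEF core) on either strand, searched because Ets1, Tcf7 and Lef1 were among the T cell markers that fell. The motifs were chosen after these values were seen.
Cd3g, chr9:44980432-44980681, minus strand: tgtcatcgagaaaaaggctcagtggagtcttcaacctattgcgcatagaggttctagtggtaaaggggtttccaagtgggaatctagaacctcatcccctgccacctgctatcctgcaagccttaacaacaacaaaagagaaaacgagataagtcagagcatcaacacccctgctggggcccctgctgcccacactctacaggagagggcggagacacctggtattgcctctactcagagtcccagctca
Cd3d, chr9:44981536-44981785, plus strand: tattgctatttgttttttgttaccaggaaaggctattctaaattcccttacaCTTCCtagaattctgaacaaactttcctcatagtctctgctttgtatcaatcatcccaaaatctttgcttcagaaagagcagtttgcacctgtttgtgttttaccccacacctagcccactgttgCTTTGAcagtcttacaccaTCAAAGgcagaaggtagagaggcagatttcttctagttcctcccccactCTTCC
Cd3e, chr9:45009612-45009861, minus strand: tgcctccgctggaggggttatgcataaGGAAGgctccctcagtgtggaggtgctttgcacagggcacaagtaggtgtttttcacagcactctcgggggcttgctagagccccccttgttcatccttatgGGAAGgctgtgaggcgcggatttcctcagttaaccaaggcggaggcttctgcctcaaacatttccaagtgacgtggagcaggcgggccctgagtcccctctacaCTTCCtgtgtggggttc
Cd247, chr1:165788431-165788680, plus strand: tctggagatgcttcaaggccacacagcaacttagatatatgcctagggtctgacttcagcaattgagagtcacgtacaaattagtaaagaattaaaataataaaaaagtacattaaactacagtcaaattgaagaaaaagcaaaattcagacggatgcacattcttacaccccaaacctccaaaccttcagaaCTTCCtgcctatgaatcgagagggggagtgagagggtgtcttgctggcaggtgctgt
The window of Cd3e held 3 matches to GGAAG, that of Cd3d 2, that of Cd247 1 and that of Cd3g 0. CTTTGA was found 2 times in the window of Cd3d and 0 times in the other 3. Among 32817 such windows of all genes, 64.1% held GGAAG and 13.8% held CTTTGA. Of the 43 members 33 had a window in this table, and in the first window listed for each, 25 (75.8%) held GGAAG and 7 (21.2%) held CTTTGA. A match is a string of letters and not a bound site.

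Cd3g was at 7.14, 7.34 and 6.85 in WT and 6.05, 6.14 and 6.33 in AMPK KO, on the scale of log2(normalized CPM + 1). All 3 AMPK KO samples lay below all 3 WT samples, and the mean of the linear values was 51.6% of WT. Cd3g fell by 0.93 on the log2 scale (SE, the standard error, 0.17, adjusted p = 0.00579 by limma), and the log2 fold change stayed between −1.06 and −0.82 with 1 library left out. The adjusted p in limma was 0.0590 without WT sample 1 and 0.0481 or less without any other library.
Cd3e followed, with 7.38, 7.30 and 7.36 in WT and 6.62, 6.94 and 6.50 in AMPK KO, or 63.5% of the WT level. The groups did not overlap, and the log2 fold change was −0.66 (SE 0.15, adjusted p = 0.0239 by limma). Its adjusted p in limma rose to 0.122 or 0.121 with WT sample 1 or 3 left out, and to 0.114 or 0.0692 with AMPK KO sample 1 or 3 left out. It was 0.0514 with no filter on low values and 0.0629 with voom.
Cd3d, the neighbour of Cd3g, was at 9.54, 9.35 and 9.46 in WT and 9.01, 9.53 and 8.88 in AMPK KO. Here AMPK KO sample 2 lay within the WT range, and the log2 fold change of −0.31 (SE 0.17, adjusted p = 0.309 by limma) did not exceed the spread between samples. Without that sample it was −0.50 (adjusted p = 0.00886 by limma).
Cd247 was at 7.91, 8.08 and 8.01 in WT and 7.86, 8.05 and 7.79 in AMPK KO. Its groups overlapped and its log2 fold change was −0.10 (SE 0.14, adjusted p = 0.726 by limma), the smallest in size of the 4 chains in the deposited values. Centred on the T cell markers it was 0.42, the largest in size of the 4.

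Differences between chains within 1 library depend little on the scaling of that library. They can still depend on its mix of cells, which was not tested for these pairs. Taken relative to Cd247, Cd3g was at −0.77, −0.74 and −1.16 in WT and −1.81, −1.91 and −1.46 in AMPK KO, a difference of −0.83 between the means. Cd3e relative to Cd247 was at −0.53, −0.77 and −0.65 in WT and −1.24, −1.11 and −1.29 in AMPK KO, a difference of −0.56. For both pairs the groups did not overlap. Cd3d relative to Cd247 was at 1.63, 1.27 and 1.45 in WT and 1.15, 1.49 and 1.09 in AMPK KO, and the groups overlapped. The difference between Cd3d and Cd3e averaged 2.10 in WT (SD 0.06, n = 3) and 2.45 in AMPK KO (SD 0.13, n = 3) without overlap, whereas those between Cd3d and Cd3g and between Cd3e and Cd3g overlapped. Each pair without overlap had p = 0.1 in a two-sided exact permutation test, the smallest that 3 samples against 3 allow, and 0.2 after adjustment over the 8 pairs examined. These pairs were chosen after the values had been seen.

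**Figure D4:**
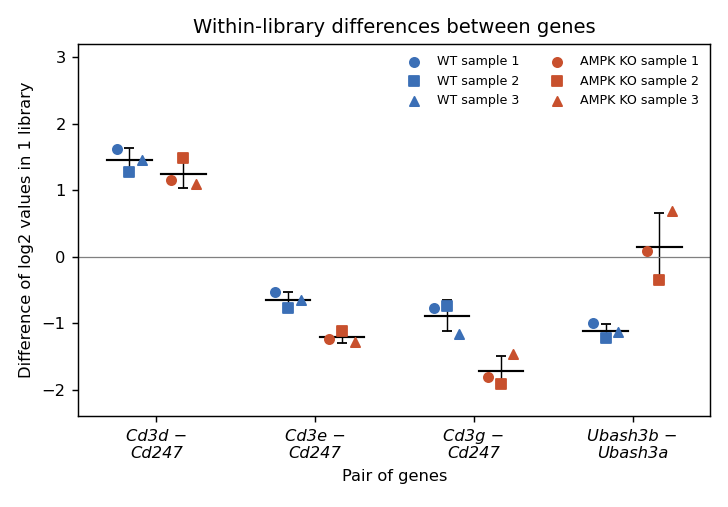
Difference between the log2 values of 2 genes of the same library (y axis) for 4 pairs (x axis), with points for samples, black lines for means and bars for the SD (n = 3). Cd3e and Cd3g relative to Cd247 are lower in all 3 AMPK KO samples, Cd3d relative to Cd247 overlaps, and Ubash3b relative to Ubash3a is higher in all 3.

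Among the surface receptors, only Thy1 passed the threshold, and in the higher direction. Thy1 (CD90), a GPI-anchored protein of the T cell surface, was at 7.86, 7.91 and 7.91 in WT and 8.36, 8.59 and 8.24 in AMPK KO, or 142% of the WT level. The groups did not overlap, with a log2 fold change of 0.50 (SE 0.14, adjusted p = 0.0476 by limma). The call was lost when the values were scaled to reads outside Rn45s (0.43, adjusted p = 0.0701 by limma), and without WT sample 1 (0.183), WT sample 2 (0.0707), WT sample 3 (0.171) or AMPK KO sample 1 (0.158). It was also lost with no filter on low values (0.0817) and with a pseudocount of 0.25 (0.0522).
Cd2, an adhesion receptor that binds CD48 in mice, was at 9.56, 9.54 and 9.36 in WT and 9.02, 9.27 and 9.01 in AMPK KO (log2 fold change −0.39, adjusted p = 0.116 by limma). Ptprc, the CD45 phosphatase that keeps Lck active, was at 10.82, 10.65 and 10.82 in WT and 10.46, 10.49 and 10.26 in AMPK KO (−0.36, adjusted p = 0.156 by limma). Cd5, an inhibitory receptor whose level follows the strength of TCR signalling, was at 6.70, 6.67 and 6.57 in WT and 6.37, 6.20 and 6.40 in AMPK KO (−0.32, adjusted p = 0.239 by limma). In these 3 genes the AMPK KO samples lay below the WT samples without overlap, but none passed the threshold. Ptprc did so after quantile normalization, and Ptprc and Cd2 did so without AMPK KO sample 2. Cd6, the neighbour of Cd5 on chromosome 19, had a log2 fold change of 0.01 (SE 0.21) and overlapping groups, and its value was −0.06 when scaled to reads outside Rn45s.

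None of the 5 kinases passed the threshold in limma (0 called, 1 at an unadjusted p under 0.05), and all 5 had negative log2 fold changes, from −0.38 to −0.17. Fyn, a Src family kinase, was at 8.26, 7.96 and 7.98 in WT and 7.81, 7.28 and 7.95 in AMPK KO, without overlap but with AMPK KO sample 3 only just below the WT samples (−0.38, SE 0.17, adjusted p = 0.219 by limma). Lck, the Src family kinase bound to CD4, was at 8.08, 8.02 and 8.18 in WT and 7.88, 8.13 and 7.77 in AMPK KO, and AMPK KO sample 2 lay within the WT range (−0.17, SE 0.14, adjusted p = 0.545 by limma). Zap70, which binds the phosphorylated CD3 chains, spread widely in WT, at 6.75, 5.76 and 6.65, and was at 5.68, 6.44 and 6.17 in AMPK KO (−0.29, SE 0.25). The Tec family kinase Txk had a log2 fold change of −0.32 (SE 0.18) and Prkcq, the protein kinase C that leads to NF-κB, one of −0.38 (SE 0.18), both with overlapping groups. All 5 turned positive when centred on the T cell markers, at 0.14 to 0.36, and none was past the threshold there.

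None of the 10 adaptors and effectors passed the threshold in limma (0 called, 2 at an unadjusted p under 0.05). Lcp2, the SLP-76 scaffold, was at 6.41, 6.24 and 6.27 in WT and 5.59, 6.04 and 5.86 in AMPK KO, without overlap (−0.47, SE 0.17, adjusted p = 0.128 by limma). Malt1, the protease of the NF-κB branch, was at 5.32, 5.25 and 5.14 in WT and 4.66, 4.95 and 5.04 in AMPK KO, also without overlap (−0.36, SE 0.20, adjusted p = 0.337 by limma). Bcl10, its partner, had a log2 fold change of −0.55 (SE 0.22, adjusted p = 0.160 by limma) with overlapping groups. Lat, the membrane scaffold phosphorylated by Zap70, had one of 0.07 (SE 0.14), and Grap2, which links Lat to Lcp2, one of 0.19 (SE 0.14). Vav1, an exchange factor for Rac, was at 0.09 (SE 0.17) and Skap1, an adaptor for integrin activation, at −0.19 (SE 0.18). Rasgrp1, which activates Ras, was at −0.36 (SE 0.22), and Sh2d1a, the SAP adaptor, at 0.06 (SE 0.36) on only 48 to 131 reads. Plcg1 had the fewest reads of all members, 24 to 94 per library, and its log2 fold change of −0.70 had a standard error of 0.45. Plcg1 overlaps Zhx3 on the opposite strand.

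In the calcium and NFAT branch, Stim1 fell and its channel partner Orai1 did not pass the threshold. Stim1, the calcium sensor of the endoplasmic reticulum, was at 6.01, 5.75 and 5.71 in WT and 4.90, 4.04 and 5.42 in AMPK KO, or 51.3% of the WT level. The AMPK KO samples differed from each other by more than the WT samples did, and all 3 lay below WT. The log2 fold change was −1.04 (SE 0.28, adjusted p = 0.0439 by limma), and leaving out AMPK KO sample 2 gave −0.67 while leaving out sample 3 gave −1.35. Adjusted p values by limma rose to 0.213, 0.0636 and 0.141 when WT samples 1, 2 and 3 were left out in turn, and to 0.115 for AMPK KO sample 1. The call of Stim1 was also lost with no filter on low values (0.133), with a pseudocount of 0.25 (0.0507) and with voom (0.0947).
Orai1, the pore of the channel, was at 6.53, 6.34 and 6.61 in WT and 6.70, 6.60 and 6.57 in AMPK KO (0.13, SE 0.15, adjusted p = 0.677 by limma). The catalytic calcineurin subunits Ppp3ca and Ppp3cb had log2 fold changes of 0.18 and −0.10 and the regulatory subunit Ppp3r1 one of 0.21, with standard errors of 0.17 to 0.20 and overlapping groups. Ppp3r1 shares part of its span with Wdr92 on the same strand. Nfatc2 was at 3.78, 3.69 and 3.94 in WT and 3.45, 3.64 and 3.06 in AMPK KO, without overlap and on 87 to 127 reads (−0.42, SE 0.29, adjusted p = 0.442 by limma). Nfatc1 (−0.05) and Nfatc3 (0.00, SE 0.27) had overlapping groups, and Nfatc3 ranged from 7.48 to 8.72 over the 6 libraries.

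The negative regulators held genes that moved in both directions. The ubiquitin ligases Cbl and Cblb, which mark activated receptors and kinases for removal, both fell. Cbl was at 6.98, 6.94 and 6.82 in WT and 6.10, 5.64 and 6.28 in AMPK KO, or 53.8% of the WT level, with a log2 fold change of −0.91 (SE 0.18, adjusted p = 0.0100 by limma). Cblb was at 5.86, 5.20 and 5.70 in WT and 4.77, 4.60 and 4.64 in AMPK KO, or 51.0% of the WT level, with a log2 fold change of −0.92 (SE 0.22, adjusted p = 0.0251 by limma). In neither gene did the groups overlap. The difference between them within a library averaged 1.32 in WT (SD 0.35, n = 3) and 1.34 in AMPK KO (SD 0.31, n = 3), and the groups overlapped. The adjusted p of Cbl in limma was 0.0833 without WT sample 1 and 0.0598 without WT sample 3, and that of Cblb was 0.151, 0.131 and 0.0846 without WT sample 1, WT sample 3 and AMPK KO sample 1. Cblb was at 0.0593 with no filter on low values and 0.0600 with voom.
Ubash3b (STS-1), a phosphatase that acts on Zap70, rose. It was at 5.46, 4.99 and 5.38 in WT and 5.96, 6.02 and 6.41 in AMPK KO, or 183% of the WT level, on 308 to 1001 reads. The groups did not overlap, with a log2 fold change of 0.85 (SE 0.20, adjusted p = 0.0229 by limma). Its adjusted p in limma was 0.00923 without AMPK KO sample 2 and between 0.0546 and 0.0830 without any 1 of the other 5 libraries, and 0.0585 with no filter on low values. Its paralog Ubash3a (STS-2) was at 6.46, 6.21 and 6.52 in WT and 5.88, 6.37 and 5.72 in AMPK KO (−0.41, SE 0.19, adjusted p = 0.236 by limma). Within a library, Ubash3b minus Ubash3a was −1.003, −1.22 and −1.13 in WT and 0.09, −0.35 and 0.69 in AMPK KO, without overlap (exact two-sided permutation test, p = 0.1, the smallest possible, and 0.2 adjusted over the 8 pairs). This difference and the rise of Ubash3b can also depend on the mix of cells, which was not tested.

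**Figure D5:**
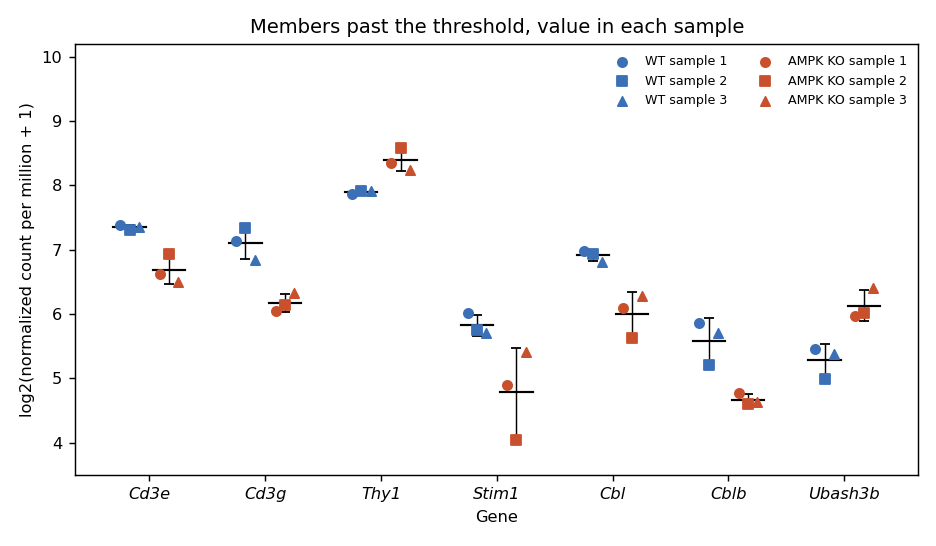
Value of the 7 members past the threshold (x axis) on the scale of log2(normalized CPM + 1) (y axis), with 1 point per sample, black lines for means and bars for the SD (n = 3). Cd3e, Cd3g, Stim1, Cbl and Cblb are lower and Thy1 and Ubash3b higher in all 3 AMPK KO samples than in any WT sample.

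The other 8 negative regulators did not pass the threshold. The diacylglycerol kinases, which end Ras activation, had log2 fold changes of 0.00 for Dgka (SE 0.15) and −0.39 for Dgkz (SE 0.20). Csk, the kinase that shuts off Lck, was at −0.04 (SE 0.17), and Pag1, the membrane adaptor that recruits it, at −0.41 (SE 0.19, adjusted p = 0.232 by limma). The phosphatases Ptpn22, Ptpn6 and Ptpn2 were at 0.10, −0.10 and −0.06 with standard errors of 0.17 to 0.21. In all of these genes the groups overlapped.

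The other genes of TCR signalling were taken from a list of 87 genes that holds no member, of which 85 were tested. Of these 6 fell (7.06%, against 3.1% of all tested genes) and 3 rose (3.53%, against 2.54%), and the median log2 fold change was −0.05. When centred on the T cell markers, 1 was lower (1.18%, against 0.594% of all tested genes) and 30 were higher (35.3%, against 31.6%). Wasf2, a regulator of actin branching, fell from 8.06, 7.87 and 8.22 in WT to 6.81, 6.35 and 6.85 in AMPK KO (−1.38, adjusted p = 0.000361 by limma). Sh2d2a, the adaptor TSAd that binds Lck, fell by 0.79 (adjusted p = 0.00971 by limma), and Nck1, an adaptor to the actin skeleton, by 0.96 (adjusted p = 0.0294 by limma). Rcan3, an inhibitor of calcineurin, fell by 0.95, Pik3r1, the regulatory subunit of PI3 kinase, by 0.59, and Sos1, a Ras exchange factor, by 0.79, with adjusted p values of 0.0185 to 0.0460 in limma.
Among those that rose, Rnf128 (GRAIL), a ubiquitin ligase linked to anergy, went from 1.81, 1.58 and 1.09 in WT to 2.82, 3.60 and 3.76 in AMPK KO on 10 to 149 reads (1.90, adjusted p = 0.0133 by limma). Skap2, a relative of Skap1 that macrophages also express, rose by 0.96 (adjusted p = 0.0326 by limma). Leaving out WT sample 1, WT sample 3 or AMPK KO sample 1 left 1 lower gene, whereas leaving out AMPK KO sample 2 gave 9 lower (10.6%) and 7 higher (8.24%) genes, against 5.14% and 5.90% of all tested genes in that fit. In the other 3 fits 0.496% to 0.887% of all tested genes were lower, against 1.18% of the list. The higher genes numbered 0 with WT sample 3 left out, 1 with WT sample 1 or AMPK KO sample 1 left out, 5 with WT sample 2 left out (5.88% of the list) and 2 with AMPK KO sample 3 left out (2.35%). Over all tested genes the higher calls were 0.665%, then 0.629% and 0.638%, then 3.55% and 1.73% in the same order of fits.

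By position, 5 of the 7 members past the threshold lay on chromosome 9, which held 7 members in all. These were Ubash3b at 41011098-41161697 (minus strand), Thy1 at 44043384-44048579 (plus strand), Cbl at 44142976-44234049 (minus strand), Cd3g and Cd3e. Cd3d lay in the same stretch and Csk, at 57626646-57653631, outside it. Stim1 was on chromosome 7 at 102267806-102437319 (plus strand) and Cblb on chromosome 16 at 52031225-52208048 (plus strand). Over all genes with a position, 8.61% of 604 on chromosome 9 passed the threshold in limma, the highest of the chromosomes that hold members in the deposited values, compared with 5.65% of all tested genes. Between the start of Ubash3b and the end of Cd3e on the chromosome 28 tested genes were not members. Of these 3 rose (Sc5d, H2afx and Cxcr5) and 3 fell (Tbcel, Usp2 and Kmt2a). Both counts are a larger share of the 28 than the 2.54% higher and 3.1% lower among all tested genes. The median log2 fold change of the 28 was 0.12. The chromosome and the stretch were chosen after the values had been seen.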

How the data were processed

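RNA-seq of 3 WT and 3 AMPK KO samples labelled as CD4 T cells was analysed, with groups and replicate numbers from the sample titles. The study describes the samples as biologically independent. The labels do not say whether each came from a separate mouse or a pool, and p values measure the spread between these samples. A 3′-end kit (Lexogen QuantSeq) was used on 500 ng of RNA per library. The submitters' processing notes name Bowtie2, bedtools and mm10. The authors deposited log2 values, made as log2 of the TMM-normalized CPM plus 1; the annotation and the strand setting of the counting are not given in the sources used here. A symbol stands on more than 1 line for 35 symbols (79 lines), none of them a member. In each library 100% of the values below 100 reads were whole to within 0.1 read, and reads were recovered on this basis, so that high read numbers are approximate.

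The deposited values were tested as they are with lmFit and eBayes (trend) of limma 3.58.1 in R 4.3.3, genotype only, for genes whose mean over the 6 samples reached 1. Tests were two-sided with Benjamini-Hochberg adjustment over all tested genes and a threshold of 0.05. The script was tested on simulated data. The members and lists were chosen with earlier results of these data known. All members are named, and pathway genes where they passed the threshold, except 1 that is not reported here. Members past the threshold, and members without overlap and a log2 fold change of at least 0.3 in size, are given in every sample. Values of different genes are not compared as levels. Positions are from GENCODE M21 and promoters from RefSeq (GRCm38.p6, the build of the files). Alternatives were other normalizations, scalings, filters, a pseudocount, voom, robust spread, a replicate block, thresholds and leaving out each library. Plots used Python 3.11.15 and matplotlib 3.10.9. Trac, Trbc1 and Trbc2 were not analysed here.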

Additional observations from a re-analysis of the deposited data

How the results depend on the processing

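Of the 7 called members, all kept their sign under the 15 alternatives tried for single genes. Without a filter on low values (genes above 0 in at least 1 library) 2 members were lower (Cbl and Cd3g), 0 were higher, and 0 of the pathway genes were higher, with 1.11% lower and 0.822% higher over all genes. Limma voom on the recovered reads used the total reads of each library, Rn45s among them, without TMM factors. It thus changed the scaling as well as the model. With voom 2 members (Cbl and Cd3g) and 3 pathway genes were lower, and the median of the members was −0.14. The median of all genes moved by 0.15, and 1.35% of all genes were lower. Scaling to reads outside Rn45s, a pseudocount of 0.25 and a limit of 1.5-fold each left 1 higher member. Centring on the T cell markers gave 0 lower and 11 higher members, 1 lower and 30 higher pathway genes (67 lower and 3560 higher of all 11279), and a median of the members of 0.24. An adjusted p of 0.1 gave 10 lower pathway genes and 587 lower genes of all 11279. With single libraries left out, the lower members ranged from 0 to 11, the higher members from 0 to 2, the lower pathway genes from 1 to 9, the higher pathway genes from 0 to 7, and the median of the members from −0.31 to −0.17. With a replicate block, 0 members were lower and 0 higher, 1 pathway gene was lower and 0 were higher, and 102 genes of all were called in place of 637. Deviations of samples with the same number were correlated at −0.08, −0.32 and −0.16, and no sample correlated best with its own number. With only 3 samples centred in each group, such correlations cannot decide whether the numbers pair samples. Members whose sign turned were not past the threshold in the deposited values. Under the T cell centring these were Cd3d 0.21, Cd247 0.42, Cd2 0.13, Cd5 0.20, Ptprc 0.16, Lck 0.36, Fyn 0.14, Zap70 0.24, Txk 0.20, Prkcq 0.14, Lcp2 0.050, Skap1 0.34, Malt1 0.17, Rasgrp1 0.16, Nfatc1 0.47, Nfatc2 0.10, Ppp3cb 0.43, Ubash3a 0.12, Dgkz 0.13, Ptpn6 0.42, Ptpn2 0.46, Csk 0.48, Pag1 0.11. Under voom they were Cd247 0.045, Nfatc1 0.096, Ppp3cb 0.045, Ptpn6 0.046, Ptpn2 0.088, Csk 0.10, under quantile normalization Sh2d1a −0.036, Nfatc1 0.023, Dgka −0.091, and under the scaling outside Rn45s Cd6 −0.061, Nfatc3 −0.068, Dgka −0.067. With 1 library left out the members that turned ranged as follows: Cd6 from −0.25 to 0.16, Lat from −0.0078 to 0.12, Sh2d1a from −0.17 to 0.40, Nfatc1 from −0.11 to 0.027, Nfatc3 from −0.23 to 0.32, Ppp3cb from −0.24 to 0.021, Dgka from −0.080 to 0.12, Ptpn22 from −0.093 to 0.39, Ptpn6 from −0.18 to 0.0028, Ptpn2 from −0.18 to 0.15, Csk from −0.15 to 0.042. The cause was not tested. Quantile normalization, a stricter filter of at least 3, and robust spread left the counts of members within 1.5 times. Depth limits Plcg1, Nfatc2 and Sh2d1a, with 24 to 131 reads.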
